A study of Bos taurus with 18 samples.

Results

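The subject here is the diet by supplement interaction in the small RNA of rumen papillae, that is, how far the move from forage to grain changed each microRNA (miRNA) differently in supplemented cows and in control cows. It was taken as the diet change in the PHY arm minus the diet change in the CON arm, (HG_PHY minus FD_PHY) minus (HG_CON minus FD_CON), on a log2 scale, so a positive value means that grain over forage came out higher in PHY cows than in CON cows. All 18 libraries of the series enter it, and 468 of 824 miRNAs had enough reads to be tested. The members are every miRNA tested, and those described one by one were picked from them by interaction p, abundance or list.

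MiRNAs are short RNAs, cut from hairpin precursors, that lower the output of messenger RNAs carrying a match to their seed. Each hairpin can yield a 5p and a 3p strand, and hairpins that lie close together are often transcribed as 1 unit. The rumen is the forestomach in which microbes ferment feed, and its papillae are lined by a stratified epithelium over a core of connective tissue, vessels and immune cells. Grain ferments faster than forage and acidifies the rumen, so the comparison asks whether the supplement went with another tissue response to that shift.

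The 9 Holstein cows were not in milk, carried a rumen cannula and were assigned to the arms at random. FD_CON (n = 5) and HG_CON (n = 5) are papillae of control cows on forage alone and on the high-grain diet with 65% concentrate. FD_PHY (n = 4) and HG_PHY (n = 4) are the same diets in cows given the supplement labelled PHY. The labels state neither age, dose nor what PHY stands for, and do not say whether PHY was already fed on forage. Forage came first in every cow, so diet and time cannot be told apart. In bulk tissue, fewer cells of a type and less RNA per cell cannot be told apart either.

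Reads counted per library came to 5.74 to 15.2 M. They did not keep step between the arms: the mean went from 11.9 M in FD_CON to 8.53 M in HG_CON, lower on grain in 5 of 5 control pairs, and from 8.34 M in FD_PHY to 9.26 M in HG_PHY. The change per pair differed between the arms by 4.31 M (exact permutation test, two-sided, p = 0.0159, the smallest that 5 against 4 pairs allow; 0.0397 after Benjamini-Hochberg adjustment over 5 library measures). The factor by which TMM scales each library (trimmed mean of M-values, a correction for differing composition) also moved with the arms, with a mean of 0.921 in FD_CON, 1.05 in HG_CON, 1.02 in FD_PHY and 1.03 in HG_PHY (exact permutation p = 0.0159, adjusted 0.0397). The part of depth and composition in the results was not tested beyond the other scalings given with the alternatives. FD_CON 2 stood apart from its group, with a chi-square per degree of freedom of 1195 to 2602 against the other FD_CON libraries, which differed among themselves by 305 to 637. Without it the 24 miRNAs named for a low p had interactions of 0.36 to 1.08 (12 positive) and -1.04 to -0.19 (12 negative). The tissue's markers were present: miR-205, a miRNA of stratified epithelia, averaged 28643 CPM (read counts scaled to library size) and miR-200a, an epithelial miRNA, 8926 CPM. miR-192 of columnar gut averaged 267 CPM. Markers of other cell types were high too, with miR-143 of smooth muscle at 133130 CPM, endothelial miR-126-3p at 11259.5 CPM and erythroid miR-451 at 9050 CPM. These levels do not give the share of epithelium in the biopsies.

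No miRNA showed a diet response that differed between the arms past the threshold. edgeR's quasi-likelihood test called 0 of 468 miRNAs at an adjusted p under 0.05 (percent called 0), and the lowest adjusted p was 0.885. At an unadjusted p under 0.05 there were 11 (2.35% of those tested), of which 7 were higher in PHY (1.5%) and 4 lower (0.855%). If no miRNA differed, a share of about 0.05 would fall under that threshold, so the 11 are no excess. With libraries scaled by DESeq2 size factors in edgeR there were also 11, as 5 higher and 6 lower. DESeq2 called 0, with 12 at an unadjusted p under 0.05 and a lowest adjusted p of 0.101, and limma-voom with quality weights called 0, with 29. With the replicate number as a block, which compares each numbered forage library with the grain library of the same arm and number, edgeR again called 0, with 27 at an unadjusted p under 0.05 (5.77%), 19 higher (4.06%) and 8 lower (1.71%), and a lowest adjusted p of 0.544. The unadjusted count rested on single libraries. It was 19 without FD_CON 2 (17 higher, 2 lower), 24 without FD_PHY 4, 23 without HG_CON 5, 18 without HG_PHY 1, and 6 without FD_PHY 2 or without FD_PHY 3.

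How large a difference these libraries could have missed depended on abundance. For the 36 miRNAs under 1 CPM the median standard error of the interaction was 1.20 log2 units, and for the 157 between 1 and 10 CPM it was 0.66. Among the 78 miRNAs of at least 1000 CPM it was 0.21, with a median interval half-width of 0.44. Of the 275 miRNAs with a mean of at least 10 CPM, 195 (70.9%) had a 95% interval that lay wholly between -1 and 1. For those, the interval leaves out an interaction of 1 log2 unit either way, a difference in the ratio of grain over forage. A small diet response that is much larger in 1 arm can still lie inside it. For 38 the interval lay within 0.5 either way. A missed threshold therefore does not show that the arms responded alike: differences of the size seen for most miRNAs, a median of 0.19 log2 units, are smaller than the error.

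**Figure D1:**
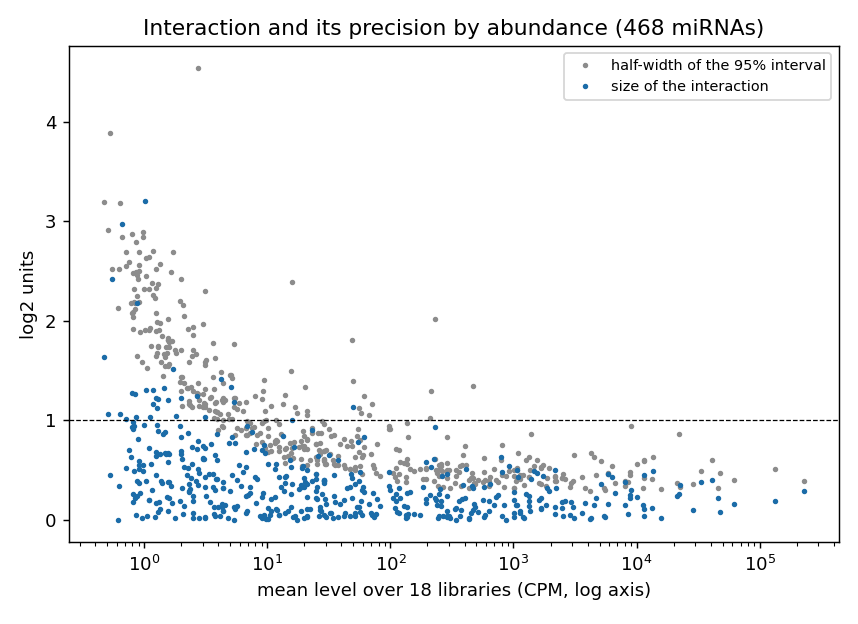
Each of the 468 tested miRNAs is drawn as a grey point for the half-width of the 95% interval of its interaction and a blue point for the size of that interaction (vertical axis, log2 units), against its mean level over 18 libraries (horizontal log axis, CPM). The half-width is above 1 for each of the 36 miRNAs under 1 CPM and has a median of 0.44 from 1000 CPM upward.

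Across the 275 miRNAs of at least 10 CPM, the diet changes of the arms had a Pearson correlation of 0.36 and a Spearman correlation of 0.36, and 174 (63.3%) had the same sign in both arms. The arms share no library, but all libraries enter 1 scaling, and miRNAs are not independent replicates, so this is a description. In CON cows edgeR called 0 of 468 miRNAs for diet at an adjusted p under 0.05 (percent called 0), with 47 at an unadjusted p under 0.05 (10%), 16 higher on grain (3.42%) and 31 lower (6.62%). In PHY cows it also called 0 (percent called 0), with 30 (6.41%), 14 higher (2.99%) and 16 lower (3.42%), and with the replicate block it called miR-146a alone. Between the arms it called 0 on forage (percent called 0), with 20 at an unadjusted p under 0.05 (4.27%), 9 higher in PHY (1.92%) and 11 lower (2.35%), and 0 on grain (percent called 0), with 31 (6.62%), 22 higher (4.7%) and 9 lower (1.92%). Diet changes of opposite sign and at least 0.3 log2 units in each arm were found for 1 of the 275 (0.364%), miR-1260b.

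**Figure D2:**
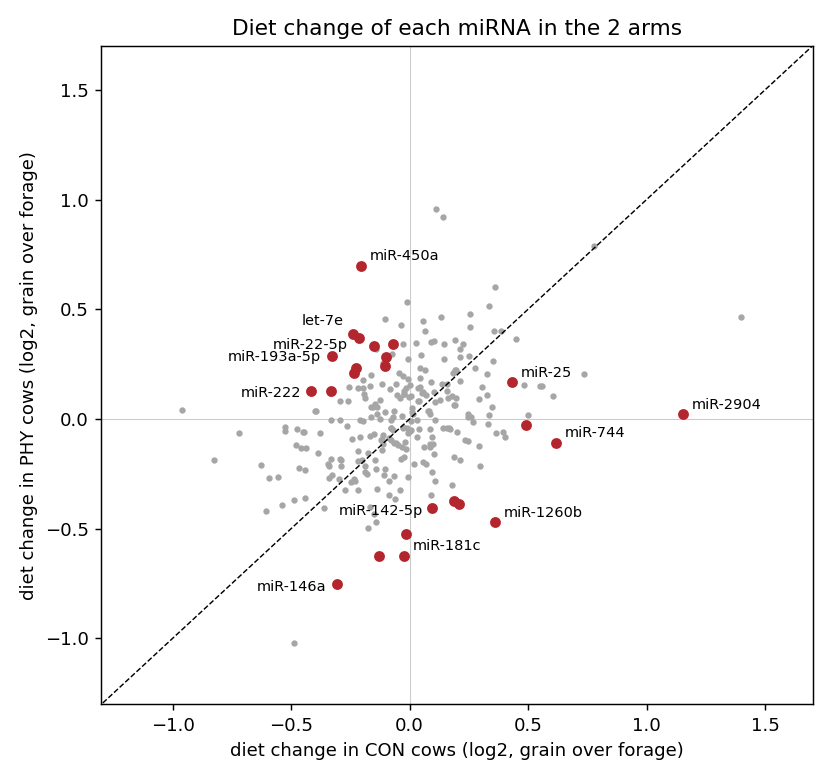
Diet change in CON cows (horizontal axis, log2, grain over forage) against that in PHY cows (vertical axis, same unit) for the 275 miRNAs of at least 10 CPM; the dashed line marks equal changes, and red points are the 24 miRNAs with the lowest interaction p, 12 in each direction. The red points lie off the line by their choice, and no point passed the threshold.

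The 24 miRNAs described next are the 12 with the lowest interaction p in each direction at a mean of at least 10 CPM. None passed, and their distance from 0 is how they were picked, so their values are a description. The 12 positive ones had interactions between 0.35 and 0.90. In all 12 the fitted diet change was below 0 in CON cows and above 0 in PHY cows, and the PHY arm was above the CON arm on grain in 12 and below it on forage in 11. The 12 negative ones ran from -1.13 to -0.26, with a fitted change below 0 in PHY cows for 10 and above 0 in CON cows for 8. Leaving out 1 library moved 6 of the 24 by over 1.5 times: let-7i to 0.23 without HG_PHY 2, miR-221 to 0.31 without FD_CON 5, miR-142-3p to -0.33 without FD_PHY 2, miR-25 to -0.17 without HG_PHY 4, miR-2904 to -0.61 without HG_CON 2 and miR-1260b to -1.43 without FD_CON 5.

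miR-193a-5p (chromosome 19), from a hairpin known for its tumour suppressor role in epithelia, had the lowest p at this abundance. Its level was 207, 246, 249, 249.9 and 219 CPM in FD_CON and 179.5, 173, 169, 244 and 168 CPM in HG_CON. In PHY cows it was 216, 186, 230.2 and 250.0 CPM on forage and 276, 263, 281 and 257 CPM on grain. Every HG_PHY library was above every other library, and HG_CON was below every FD_CON library in 4 of 5, with HG_CON 4 inside the forage range. Grain over forage came to -0.33 ± 0.13 (log2, SE) in CON and 0.29 ± 0.14 in PHY, an interaction of 0.61 ± 0.19 with a 95% interval from 0.22 to 1.01. The unadjusted p was 0.00378 and edgeR's adjusted p 0.885. Without HG_CON 4 the interaction was 0.73 and its adjusted p 0.207, the lowest it reached in 30 alternatives.

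miR-22-5p (chromosome 19) comes from the same hairpin as the abundant miR-22-3p, a widely expressed regulator of growth and metabolism. It stood at 221, 218, 199.6, 201 and 199 CPM in FD_CON and at 171, 194, 124, 201 and 205 CPM in HG_CON. In the PHY arm it stood at 168, 172, 162 and 195 CPM on forage and at 213, 220.0, 219 and 247 CPM on grain. All 4 FD_PHY libraries were below all 5 FD_CON libraries, and all 4 HG_PHY libraries were above all 5 HG_CON libraries, so the arms stood in opposite order on the 2 diets. The interaction was 0.58 ± 0.20 (interval 0.17 to 0.99, unadjusted p = 0.00731, edgeR adjusted p = 0.997). The 3p strand, at a mean of 6364 CPM, had 0.43 ± 0.26.

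miR-222 and miR-221 lie 690 nt apart on the X chromosome and are known to repress the cell cycle inhibitor CDKN1B. miR-222 was at 1109.9, 1000.4, 946, 909 and 1199 CPM in FD_CON and at 879, 505, 685, 933 and 863 CPM in HG_CON. In PHY cows it was at 1007, 943, 790.0 and 854 CPM on forage and at 1123, 1074, 711 and 1012 CPM on grain. The control groups overlapped only through HG_CON 4, while the PHY groups overlapped widely. Its interaction was 0.54 ± 0.23 and that of miR-221 was 0.49 ± 0.26, with miR-221 at 1464 ± 407 CPM in FD_CON and 1318 ± 316 CPM in HG_CON (SD, n = 5 each) against 1389 ± 133 and 1750.5 ± 209 CPM in the PHY groups (SD, n = 4 each). Neither passed in edgeR (adjusted p = 0.997 for both).

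**Figure D3:**
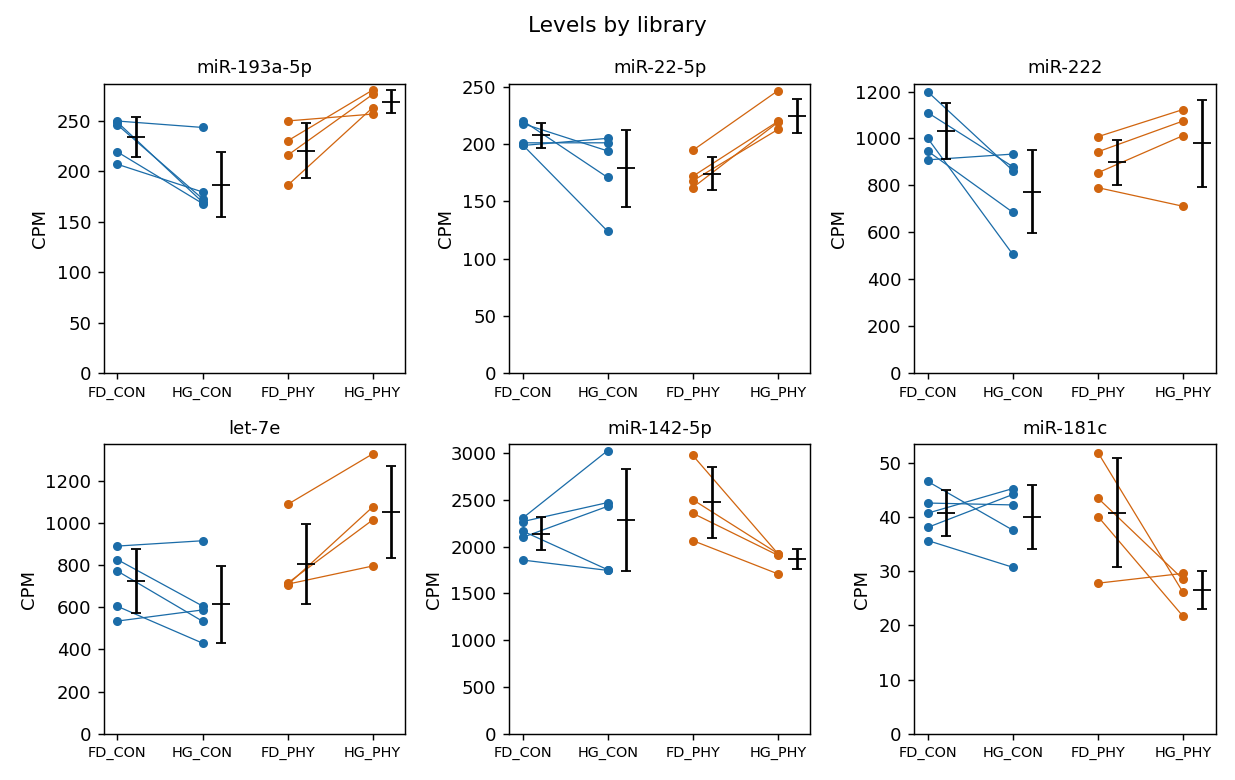
Level in CPM (vertical axis, from 0) of 6 of the miRNAs described, by group; points are libraries, lines join libraries of the same arm and replicate number (blue CON, orange PHY), and black bars are the group mean ± SD (n = 5 for CON groups, n = 4 for PHY groups). For miR-193a-5p the 4 HG_PHY libraries sit between 257 and 281 CPM, above all others, and for miR-181c they sit between 21.7 and 29.6 CPM, below all control libraries.

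Guide strands of the let-7 family, regulators of growth and differentiation genes such as HMGA2, were all on the positive side. let-7e (chromosome 18) was at 605, 773, 827, 891 and 535 CPM in FD_CON and at 430.2, 534, 607, 917 and 588 CPM in HG_CON. Its level was 710.4, 707, 715 and 1089 CPM in FD_PHY and 797, 1077, 1016 and 1329 CPM in HG_PHY. HG_CON 4 was again the control grain library that stood with the PHY ones. The interaction was 0.63 ± 0.29 for let-7e, 0.35 ± 0.16 for let-7g and 0.38 ± 0.19 for let-7i. All 9 guide strands, miR-98 included, had an interaction above 0, between 0.32 and 0.63, with a diet change below 0 in CON cows for 8 and above 0 in PHY cows for 8. The 8 passenger strands had a median of 0.09, with 7 above 0, or 6 with the adjusted counts, and hsa-let-7g-3p lay at 0.00 ± 0.54. The guides differ by few bases and may share reads, so they are not counted as 9 separate measurements. The authors' adjusted counts of the guides were between 0.167 and 0.987 of the raw ones. Ratios like those of let-7g and let-7i were also found outside the family, for miR-142-5p and miR-25. The ratio therefore cannot tell whether reads were shared between guides. With the adjusted counts 9 of 9 guides were above 0 and their median was 0.383, beside 0.384 with the raw counts. The adjusted fit nearly repeats the raw one (let-7g 0.3456 against 0.3460), so it is no separate check on shared reads.

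Of the remaining positive miRNAs, miR-199a-3p, typical of fibroblasts, had 0.46 ± 0.22, with group means of 6551 ± 975 and 5211 ± 623 CPM in CON and 5534 ± 1109 and 6045 ± 1160 CPM in PHY (SD; forage, then grain). The p53-induced miR-34a had 0.46 ± 0.23, and its 4 HG_PHY libraries (295 to 336 CPM) were above the 4 FD_PHY libraries (252 to 293 CPM). miR-450a, scarce at 23.0 CPM, had the largest of the 12 at 0.90 ± 0.44, with FD_PHY 3 at 9.34 CPM below the other forage PHY libraries. miR-1468 had 0.44 ± 0.24 and the ruminant-specific miR-2284y 0.41 ± 0.22. The reads of miR-2284y fit many loci, with an adjusted count of 0.0846 of the raw one, and its value is uncertain.

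On the negative side, strands of the miR-142 hairpin, which is made in blood cells, included the lowest p at this abundance. miR-142-5p (chromosome 19) was at 2099, 2268, 2304, 2167 and 1857 CPM in FD_CON and at 2432, 2471, 3028, 1753 and 1746 CPM in HG_CON. In PHY cows it was at 2357, 2976, 2502.2 and 2065 CPM on forage and 1908, 1925, 1926 and 1709 CPM on grain. The PHY groups did not overlap, while HG_CON spread to both sides of FD_CON. The interaction was -0.50 ± 0.21 (interval -0.94 to -0.07, unadjusted p = 0.0255, edgeR adjusted p = 0.997), and miR-142-3p had -0.51 ± 0.26.

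miR-181c and miR-181a belong to a family known for tuning lymphocyte signalling. miR-181c (chromosome 7) was at 35.6, 38.1, 40.7, 42.6 and 46.6 CPM in FD_CON and at 30.7, 44.2, 45.2, 42.2 and 37.6 CPM in HG_CON. It was at 40.1, 51.9, 43.5 and 27.8 CPM in FD_PHY and at 21.7, 26.1, 28.5 and 29.6 CPM in HG_PHY. The control groups overlapped, and HG_PHY was below all control libraries, with FD_PHY 4 as low as the grain libraries of its arm. Its interaction was -0.60 ± 0.26, and that of miR-181a was -0.50 ± 0.25, from a diet change of -0.13 ± 0.17 in CON and -0.63 ± 0.19 in PHY. All 4 HG_PHY libraries of miR-181a (563 to 823 CPM) were below all 4 FD_PHY libraries (836 to 1403 CPM).

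miR-146a, a feedback inhibitor of NF-kappaB signalling through IRAK1 and TRAF6, had a fitted diet change below 0 in both arms, of larger size in PHY. It was at 1682, 1896, 2455, 2498 and 1681 CPM in FD_CON and at 1981, 1454, 2189, 1421 and 1206 CPM in HG_CON. In the PHY arm it was at 1969, 2562, 2068 and 1507 CPM on forage and at 1177, 1493, 1077 and 1066 CPM on grain. The PHY groups did not overlap and the control groups did. The diet change was -0.31 ± 0.18 in CON and -0.75 ± 0.20 in PHY, and the difference between them, -0.44 ± 0.26, did not pass (interval -0.99 to 0.10, edgeR adjusted p = 0.997, and 0.808 with the replicate block). The call for diet in PHY cows with that block (adjusted p = 0.0439) thus does not show a difference between the arms.

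miR-25, miR-744 and miR-345-3p had fitted diet changes of 0.43 to 0.62 in CON and -0.11 to 0.17 in PHY. miR-25, of the miR-106b-25 cluster, had a diet change of 0.43 ± 0.12 in CON and 0.17 ± 0.13 in PHY, an interaction of -0.26 ± 0.18. miR-744 had 0.62 ± 0.25 in CON and -0.11 ± 0.28 in PHY, at 16.3 CPM, and miR-345-3p 0.49 ± 0.24 and -0.03 ± 0.27, at 18.9 CPM. miR-2904 had -1.13 ± 0.67, or -0.61 without HG_CON 2 and -1.58 without FD_CON 5, and its highest library was HG_CON 2 at 146 CPM beside 13.7 to 83.0 CPM in the others. Its reads fit many loci (adjusted count 0.0276 of the raw one). miR-1260b, the miRNA with opposite signs, had 0.36 ± 0.40 in CON and -0.47 ± 0.44 in PHY, and FD_CON alone ranged from 21.3 to 137 CPM. miR-2285aa (-0.60 ± 0.37) and miR-2285g (-0.56 ± 0.41) are ruminant-specific and scarce. Chosen after its values were seen, miR-2320-5p had the lowest p of all 468 (0.00211; edgeR adjusted p = 0.885) with -3.20 ± 0.92, at a mean of 1.02 CPM.

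**Figure D4:**
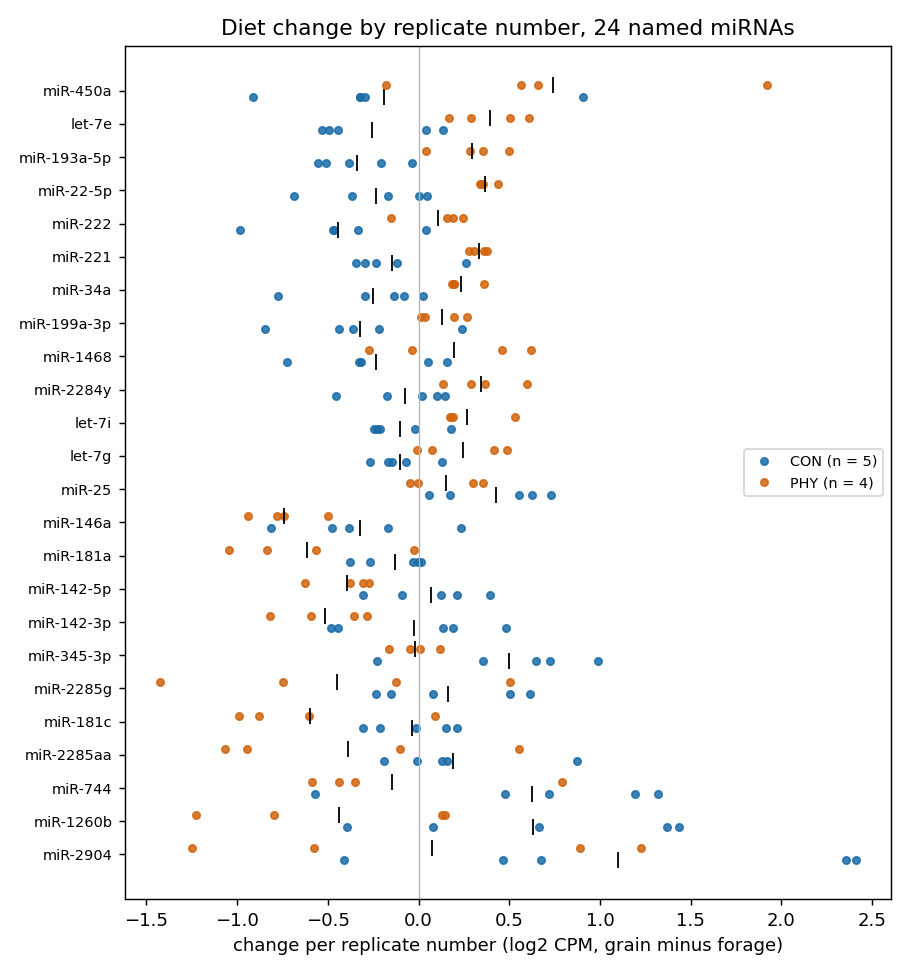
Change in log2 CPM from forage to grain (horizontal axis) for each pair of libraries with the same arm and replicate number, for the 24 miRNAs with the lowest interaction p; blue points are 5 CON pairs, orange points 4 PHY pairs and black ticks their means. The pairs of the arms do not overlap for miR-193a-5p, miR-22-5p, let-7e, miR-34a and miR-221, and overlap for the other miRNAs drawn.

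Taken pair by pair, the diet change of every PHY pair was above that of every CON pair for 6 of the 275 miRNAs of at least 10 CPM (2.18%): miR-193a-5p, miR-22-5p, let-7e, miR-34a, miR-221 and miR-23a. The reverse order was seen for 0 of 275. For miR-221 the PHY pairs ranged from 0.28 to 0.38 and the CON pairs from -0.34 to 0.26. miR-23a, chosen for this order after its values were seen, had an interaction of 0.49 ± 0.30.

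Strands cut from the same hairpin give a second readout from other reads. For the 24 miRNAs, 10 such pairings could be tested, the miR-142 strands counted from each side. The partner had the same sign in 8, beside 42 of 76 (55.3%) over all hairpins with both strands tested. Both miR-142 strands were picked for the negative side, so their same sign was set by the choice. The 8 of 10 is therefore no support when set beside that share. In 2 of the 8 the partner lay at 0, hsa-let-7g-3p at 0.00 ± 0.54 and hsa-miR-1468-3p at 0.00 ± 1.03, and the replicate block put these at -0.02 and -0.19. The partner of miR-193a-5p, miR-193a-3p, had 0.26 ± 0.27 with fitted diet changes of 0.09 in CON and 0.35 in PHY, both above 0, unlike the 5p strand. The passenger let-7i-3p (hsa entry) had -0.27 ± 0.27 against 0.38 for its guide, and miR-345-5p 0.05 ± 0.46 against -0.52. Of 16 pairings with a strand of another hairpin within 10 kb, a distance chosen after seeing the data, 12 had the same sign. miR-221 and miR-222 were counted from each side, and both were picked as positive, so their same sign was set by the choice. Several other pairings come from 1 cluster. The share over all miRNAs with such neighbours was not computed, so the 12 of 16 cannot be read as more than usual. On the X chromosome, miR-450b (0.78 ± 0.44), miR-424-5p (0.46 ± 0.38) and miR-503-5p (0.43 ± 0.60) were positive beside miR-450a, and miR-424-3p was not (-0.62 ± 0.61). Next to let-7e, miR-99b had -0.26 ± 0.29 and miR-125a 0.08 ± 0.24. Next to miR-25, hsa-miR-93-5p had 0.17 ± 0.16 and miR-106b 0.14 ± 0.16.

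Groups of miRNAs were described by how many members lay above 0, beside 264 of 468 (56.4%) and a median of 0.04 over all miRNAs tested. This share was 52.1% with DESeq2 size factors. On leaving out 1 library it went from 47.3% without HG_CON 1 to 59.5% without FD_CON 3. The median over all went from -0.02 without HG_CON 1 to 0.07 without FD_PHY 4. 0 members of any list passed edgeR's test over all miRNAs, 3 had an unadjusted p under 0.05 on the positive side (let-7e, let-7g and miR-199a-3p), and miR-142-5p and miR-181c on the negative side. Leaving out 1 library moved many of the list medians, and the lowest and highest are given with each list. The let-7 family had 16 of 17 above 0, or 13 to 16 over the other scalings, tools and counts, and a median of 0.35 (0.28 without HG_PHY 3 to 0.44 without FD_PHY 4). Among miRNAs of stratified epithelium 7 of 8 lay above 0 (median 0.30, from 0.18 without HG_PHY 1 to 0.42 without HG_CON 4). The abundant miR-205 was at 0.10 ± 0.17, miR-31 at 0.35 ± 0.28 and the scarce miR-184 at 1.41 ± 0.72. The list includes miR-34a, already picked as positive, and miR-24-3p (0.16 ± 0.19). The miR-24 entry was below 0 (-0.12 ± 0.21), and no miR-203 entry was among the 8 tested. The miR-200 family had 5 of 5 above 0, or 4 with DESeq2 size factors, between 0.02 for miR-141 and 0.25 ± 0.22 for miR-200a (median 0.16, from 0.08 without FD_PHY 2 to 0.28 without FD_PHY 4). In the miR-29 family, which targets collagen transcripts, 6 of 9 were above 0, or 5 of 9 with the replicate block, DESeq2, limma-voom and other scalings (median 0.32, from 0.11 without HG_PHY 4 to 0.42 without FD_CON 5), with the abundant miR-29a at -0.05 ± 0.18 and miR-29c at 0.00 ± 0.24. The other 5 above 0 were 5p strands of at most 29.1 CPM, of which miR-29d-5p (0.39 ± 0.33) and hsa-miR-29c-5p (0.39 ± 0.33) share reads.

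Fibroblast miRNAs had 6 of 8 above 0 (median 0.18, from 0.04 without HG_PHY 2 to 0.28 without FD_PHY 2). Muscle miRNAs had 5 of 6 (median 0.16, from -0.07 without FD_CON 2 to 0.24 without HG_CON 2), with miR-143 at 0.19 ± 0.25 and miR-145 at 0.15 ± 0.30. The muscle miR-133a had -0.29 ± 0.37. For endothelial miRNAs the count was 2 of 3 (median 0.13, from 0.02 without HG_PHY 1 to 0.22 without HG_PHY 3), with miR-126-3p at -0.15 ± 0.16 and miR-218 at 0.31 ± 0.25.

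The leukocyte, erythroid, miR-181 and columnar gut lists had medians below 0. Of the leukocyte miRNAs 6 of 9 were below 0 (median -0.23, from -0.30 without FD_CON 4 to -0.17 without HG_CON 3), among them miR-150 of lymphocytes at -0.35 ± 0.31 and miR-342 at -0.23 ± 0.19, while miR-146b (0.21 ± 0.27), miR-147 (0.19 ± 0.24) and the myeloid miR-223 (0.24 ± 0.40) were above 0. Their summed level ranged from 6111 to 7526 CPM in FD_CON, 5416 to 8344 CPM in HG_CON, 6049 to 8756 CPM in FD_PHY and 5612 to 6143 CPM in HG_PHY. The groups overlapped, and the part of leukocyte content in the values of miR-142, miR-146a and miR-181 was not tested. All 4 members of the miR-181 family were below 0 (median -0.46, from -0.60 without FD_PHY 4 to -0.31 without FD_PHY 2), with miR-181b at -0.05 ± 0.21, and all 3 erythroid miRNAs were (miR-486 at -0.41 ± 0.41, miR-451 at -0.30 ± 0.45). The erythroid median of -0.30 ran from -0.63 without HG_PHY 1 to -0.10 without HG_PHY 4. The columnar gut list had 5 of 6 below 0 (median -0.18, from -0.23 without FD_PHY 4 to -0.06 without FD_PHY 3). The lowest were miR-122 (-0.48 ± 0.44), which is also on the lipid and energy list, miR-375 (-0.45 ± 0.41) and miR-215 (-0.33 ± 0.31). miR-192 (0.04 ± 0.16), miR-194 (-0.01 ± 0.15) and the hsa entry of miR-194-5p (-0.02 ± 0.16) lay near 0, so the list does not show a shared fall of gut miRNAs.

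**Figure D5:**
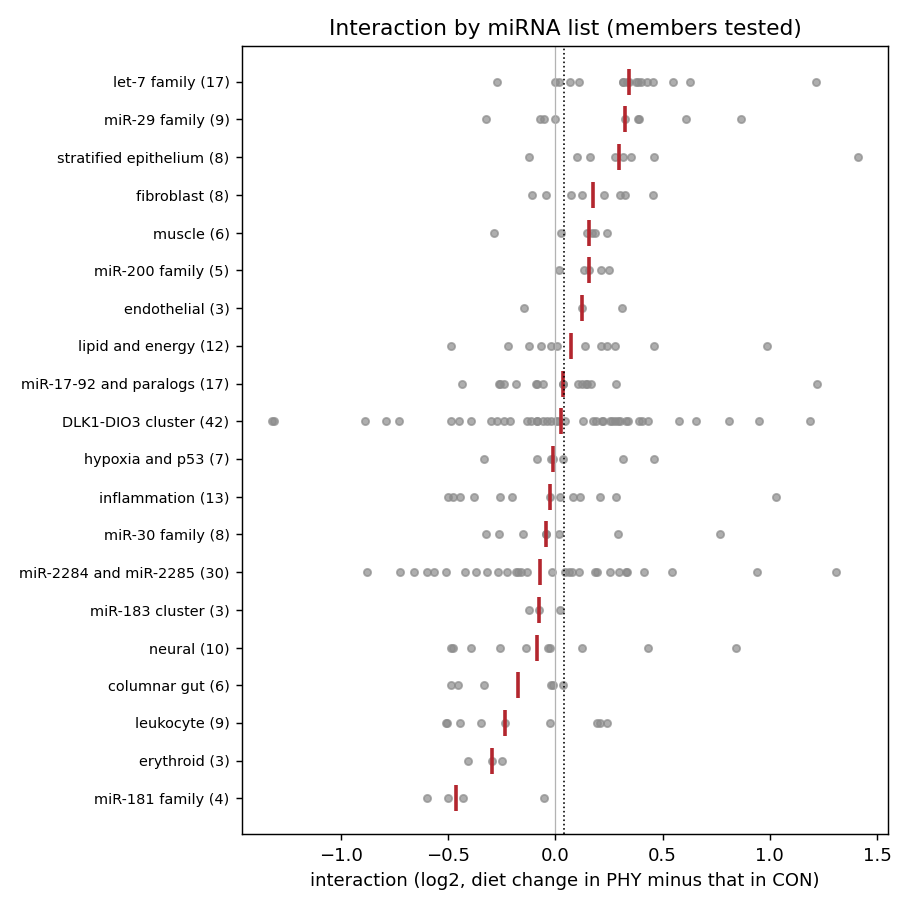
Interaction of every tested member (grey points) and the median (red tick) of each of 20 miRNA lists, on a log2 axis, with the number tested after each name; the dotted line is the median of all 468 miRNAs, 0.04. The let-7 family has the highest median (0.35) and the miR-181 family the lowest (-0.46), and the members of most lists lie on both sides of 0.

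The other 9 lists had medians between -0.08 and 0.07, and each median changed sign on leaving out at least 1 of the 18 libraries. The neural list had 7 of 10 below 0 (median -0.08), with miR-9-5p at -0.48 ± 0.36 and miR-129-5p at 0.84 ± 0.56. The neural median was 0.11 without FD_CON 2, -0.30 without HG_PHY 4 and -0.28 with the replicate block. The miR-30 family had 5 of 8 below 0 (median -0.04), with miR-30b-5p at 0.29 ± 0.25. The miR-17-92 group and paralogs had 9 of 17 above 0 (median 0.03), the lipid and energy list 7 of 12 (0.07), the DLK1-DIO3 cluster 23 of 42 (0.03), and miR-2284 and miR-2285 14 of 30 (-0.07). The inflammation list had 6 of 13 above 0, with miR-155-5p (hsa entry) at -0.03 ± 0.20 beside miR-146a. The hypoxia-induced miR-210 had a diet change of 0.45 in CON and 0.37 in PHY and an interaction of -0.08 ± 0.27, and the miR-183 cluster had 2 of 3 below 0.

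The 10 most abundant miRNAs show how far the main body of the counted miRNA reads differed. miR-21-5p, the most abundant, was at 244282 ± 36425 CPM in FD_CON and 199598 ± 29535 CPM in HG_CON (SD, n = 5 each), and at 235203 ± 15523 and 234218 ± 30388 CPM in FD_PHY and HG_PHY (SD, n = 4 each). Its interaction was 0.29 ± 0.19, with an interval from -0.10 to 0.67. miR-143 of smooth muscle had a diet change of -0.61 ± 0.17 in CON and -0.42 ± 0.19 in PHY, and the difference had an interval from -0.33 to 0.70. The values of all 10 lay between -0.26 (miR-30a-5p) and 0.40 (let-7a-5p), 9 above 0, and 9 of 10 intervals lay between -1 and 1. Single libraries set several of these values. Without FD_CON 2 the interaction of miR-143 went from 0.19 to -0.02, that of miR-26a from 0.08 to -0.04 and that of miR-30a-5p from -0.26 to -0.50. miR-30a-5p was at -0.53 without HG_PHY 3 and at 0.04 without HG_CON 2, and miR-26a at -0.02 without HG_CON 1. miR-24-3p ranged from 0.05 without HG_PHY 2 to 0.30 without HG_PHY 3, and miR-205 from 0.01 without HG_CON 3 to 0.17 without HG_CON 4. let-7a-5p was at 0.62 without FD_PHY 4 and let-7f at 0.24 without HG_PHY 3. miR-26a had the smallest value, 0.08 ± 0.23, and miR-27b the narrowest interval, from -0.11 to 0.54.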

How the data were processed

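Small RNA from 18 rumen papilla libraries was analysed from the deposited files. Per the file headers, the authors list raw counts of reads per mature miRNA, estimated counts adjusted for multiple mapping, and RPM of all reads; the deposited RPM values served only for total reads and the assigned share (27.0% to 48.6%). Names under 2 reads are not listed. The authors' table of 673 names holds a normalized signal, deposited for the whole series; with 1 factor per library, 100% of its values became whole reads (tolerance 0.01), equal to the rounded adjusted counts, and edgeR called 0 miRNAs on them. Per the submitters' processing notes, bcl2fastq 2.20 and DESeq2 were used; no source used here names the aligner, counter or build. RNA came from a NucleoSpin kit and libraries from NETflex, per the labels' protocols.

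Names overlapping by at least 15 nt, or bovine and human (hsa) entries of 1 miRNA with totals within 5%, were merged (966 names to 824 miRNAs), keeping the name with most reads. Raw counts were scaled by TMM, filtered with filterByExpr and tested in edgeR 4.0.16 (R 4.3.3; robust quasi-likelihood, 4 group means), with Benjamini-Hochberg adjustment over 468 miRNAs, a threshold of 0.05 and two-sided tests. Levels are CPM; effects are log2 differences ± SE. Library values were compared by exact permutation. The script was tested on simulated data. DESeq2 1.42.0 and limma 3.58.1 were alternatives. Libraries with the same arm and number correlated in their deviations from group means at 0.165 to 0.503 in all 9 pairs, so the numbers were taken as pairs. In 7 of the 9 the own number was the best match within the arm. FD_CON 3 correlated more with HG_CON 1 (0.333 against 0.306) and FD_CON 4 with HG_CON 2 (0.337 against 0.165), so the pairing is uncertain. The reported fit has no block. Labels do not say that a number is a cow, and without the block p-values treat 18 libraries of 9 cows as independent. Replicates differed by at least 110.6 in chi-square per degree of freedom, so none was a copy.

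Named miRNAs were the 12 with the lowest p in each direction at 10 CPM or more, those of opposite sign with 0.3 log2 in each arm (up to 6), the 10 most abundant, up to 2 of lowest p per list, and the other strand of a named hairpin. Members and the 20 lists were chosen with earlier results of these data known.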

Additional observations from a re-analysis of the deposited data

Results flagged for a closer look

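Of 104 groups checked for a library far from the rest (4 groups for each of the 24 named miRNAs and for 2 library measures), 10 held one. A library was taken as far when its gap to the nearest, divided by the range of the group, passed Dixon's 95% critical value, which by its construction marks about 1 in 20 groups by chance. Among the miRNAs with a positive interaction, miR-193a-5p in HG_CON 4 stood at 244 CPM beside 168 to 179.5 CPM in the other HG_CON libraries. FD_PHY 4 stood apart for let-7e (1089 CPM beside 707 to 715 CPM) and for let-7g (24182 CPM beside 18595 to 19098 CPM). FD_PHY 3 stood below its group for miR-450a (9.34 CPM beside 21.3 to 22.7 CPM) and for let-7i (6338 CPM beside 7518 to 7699.9 CPM). miR-2284y in HG_PHY 1 was at 31.3 CPM beside 28.5 to 28.7 CPM.

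Among the negative ones, miR-142-5p in HG_PHY 4 was at 1709 CPM beside 1908 to 1926 CPM, miR-181a in HG_PHY 1 at 563 CPM beside 782 to 823 CPM, and miR-2904 in FD_CON 5 at 62.4 CPM beside 13.7 to 27.3 CPM. Reads counted in HG_CON 1 came to 5.74 M beside 8.64 to 9.75 M. A tested difference between the arms was found for reads counted, whose change differed by 4.31 M (PHY minus CON), and for the TMM factor, whose change differed by -0.121 (exact permutation, adjusted p = 0.0397 for each). It was found for 0 miRNAs in edgeR, with 11 at an unadjusted p under 0.05 and 0 calls in DESeq2.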

How the results depend on the processing

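The interaction had 0 calls in every alternative run, the threshold of 0.1 and the fit on reads recovered from the authors' table (chosen after seeing the data) included, and the 24 named miRNAs kept the sign of their interaction in all 30 alternatives each. The replicate block changed no call of the interaction, and its unadjusted count (27 against 11) is in the report; unadjusted counts were 41 of 824 with no filter and 7 of 287 with the filter of 10 CPM in 4 libraries, where the number tested differs, and 18 of 673 in limma-trend on the authors' table. Leaving out 1 library gave unadjusted counts from 6 to 24. The diet change in PHY had 1 call with the replicate block (miR-146a) and 1 in limma-voom (miR-320a), against 0. PHY against CON on forage had 1 call in DESeq2 (miR-190a) and 0 to 1 when 1 library was left out (miR-190a without FD_CON 4 or HG_CON 4), and on grain 2 in DESeq2 (miR-190a and miR-193a-5p) and 0 to 3 when 1 library was left out (miR-190a, let-7e and miR-193a-5p without HG_CON 4); the cause was not tested. Other scalings moved the median of all miRNAs by at most 0.03. Depth limits the 193 miRNAs under 10 CPM most.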
